A study of Mus musculus with 12 samples.

Results

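The genes described here are Wnt4, Rspo1, Dkk1, Sfrp1, Sfrp2 and Lef1, which make, adjust or carry out the Wnt signal. They are 6 of the 8251 genes that the MG_U74Av2 array measures with a probe set of a single gene symbol, and 7 probe sets represent them: 103238_at for Wnt4, 98312_at for Rspo1, 99881_at for Dkk1, 97997_at for Sfrp1, 93503_at for Sfrp2, and both 103628_at and 103629_g_at for Lef1. Members were taken by gene symbol. Lef1 encodes a nuclear transcription factor, so it is neither a ligand nor a secreted modulator and is treated below as the intracellular end of the pathway. The 4 groups were dissected by morphology from kidneys of wild-type Swiss Webster mouse embryos at E14.5 (Theiler stage 22, sex not known): single S-shaped bodies (replicates 3, 4 and 5, each 1 structure amplified alone), pooled S-shaped bodies (replicates 1, 2 and 3, each a pool of 20), renal vesicles (replicates 2, 3 and 4, each a pool of 20) and collecting duct (replicates 1, 2 and 3, unpooled). RNA of all 12 samples went through 2 rounds of linear amplification before hybridisation. Whether samples of a group came from different embryos is not labelled, and each p-value therefore reflects sample-to-sample spread that may in part be technical.

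Wnt proteins are secreted lipid-modified ligands. In the canonical branch a Wnt binds a Frizzled receptor together with Lrp5 or Lrp6, β-catenin is spared from degradation, and it enters the nucleus to act with Tcf and Lef factors. In the developing kidney the ureteric bud, which becomes the collecting duct, signals to the cap mesenchyme, and Wnt4 made by the induced mesenchyme drives it to become an epithelial renal vesicle. The vesicle then elongates into the comma- and S-shaped bodies that form the nephron. R-spondins strengthen the Wnt signal, Dickkopf proteins such as Dkk1 block the Lrp co-receptors, and secreted Frizzled-related proteins such as Sfrp1 and Sfrp2 bind Wnts outside the cell.

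Promoter windows were matched for 5 of the 6 genes, and 4 are shown because these genes had contrasting profiles: Wnt4 and Dkk1 were above background in renal vesicles and collecting duct and in neither S-shaped body group, while Sfrp2 and Rspo1 were highest in renal vesicles and lowest in collecting duct. Each window is RefSeq sequence of build GRCm38.p6, running 5′ to 3′ on the gene's strand from 250 bases before to 50 bases after the annotated start. Windows are Wnt4 at chr4:137277385-137277684 on the plus strand, Dkk1 at chr19:30549447-30549746 on the minus strand, Sfrp2 at chr3:83766071-83766370 on the plus strand and Rspo1 at chr4:124986180-124986479 on the plus strand. Capitals mark matches to 4 short motifs of the kind that Tcf and Lef factors are known to bind, searched on both strands: the motif CTTTGAT, its variant CTTTGTT, the further variant CTTTGAA and the last variant CTTTGTA. No matches overlapped one another in the windows shown.
Wnt4: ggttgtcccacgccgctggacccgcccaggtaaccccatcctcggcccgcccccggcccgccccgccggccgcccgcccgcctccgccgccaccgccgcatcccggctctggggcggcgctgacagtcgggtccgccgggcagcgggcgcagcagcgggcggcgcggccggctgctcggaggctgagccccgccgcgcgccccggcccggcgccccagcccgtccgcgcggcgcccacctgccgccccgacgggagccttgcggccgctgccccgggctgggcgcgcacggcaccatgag
Dkk1: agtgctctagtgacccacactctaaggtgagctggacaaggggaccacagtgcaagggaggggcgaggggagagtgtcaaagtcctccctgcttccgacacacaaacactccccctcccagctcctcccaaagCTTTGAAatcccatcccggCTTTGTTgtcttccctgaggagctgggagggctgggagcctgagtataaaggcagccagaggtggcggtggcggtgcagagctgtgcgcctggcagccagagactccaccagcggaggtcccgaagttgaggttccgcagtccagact
Sfrp2: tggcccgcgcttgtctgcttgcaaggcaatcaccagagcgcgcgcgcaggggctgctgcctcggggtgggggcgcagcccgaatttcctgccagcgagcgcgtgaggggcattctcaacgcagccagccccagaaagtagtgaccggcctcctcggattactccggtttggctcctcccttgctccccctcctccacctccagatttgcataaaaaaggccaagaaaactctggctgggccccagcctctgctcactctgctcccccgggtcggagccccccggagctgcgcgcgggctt
Rspo1: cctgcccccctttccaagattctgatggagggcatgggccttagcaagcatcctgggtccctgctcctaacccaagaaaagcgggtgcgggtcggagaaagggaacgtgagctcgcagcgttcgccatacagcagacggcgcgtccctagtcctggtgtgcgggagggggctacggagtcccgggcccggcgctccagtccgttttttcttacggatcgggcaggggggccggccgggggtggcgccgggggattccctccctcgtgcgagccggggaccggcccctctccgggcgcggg
The Dkk1 window held 2 matches, CTTTGAA beginning 117 bases and CTTTGTT beginning 98 bases upstream of the start. No match was found in the windows of Wnt4, Sfrp2 or Rspo1. Of the 4 windows listed for Lef1, 1 held a single match, CTTTGTA on the other strand, 147 bases upstream. Over all 32841 windows of the same length in the RefSeq table, 16.9% held at least 1 of the 4 motifs. A match is a string of letters and not a measured binding site, and a missing match says only that these letters are not in this window.

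The deposited arrays differed in brightness. Mean deposited signal ran 21.4 to 70.6 for single S-shaped bodies, 203 to 239 for pooled S-shaped bodies, 108 to 131 for renal vesicles and 273 to 363 for collecting duct. The arrays were therefore quantile normalised, and levels below are log2 of the normalised signal plus 7.22, on which a signal of 0 or less sits at a floor of 2.85. Changes on this scale understate the change of dim genes. A group wholly at the floor, such as Wnt4 in both S-shaped body groups, has an SD of 0 on this scale. The spread of its deposited signals below 0 is then absent from the p-values of its comparisons. For each array the background level was the depth below 0 that the lowest 5% of its deposited values reach or pass. A probe set brighter than this was counted as above background, and between 48.3% and 59.7% of probe sets were above it. Where every array of the dimmer group was at or below background, the fitted change is no measure of size. A fold bound is then given instead ("at least N-fold"), taken from the brighter group's mean against the higher of the background level and the dim group's own value.

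The 6 genes fell into distinct profiles across the structures. Wnt4 and Dkk1 were detected in renal vesicles and in collecting duct, and on none of the 6 S-shaped body arrays. Sfrp2 was detected on all 12 arrays, brightest in renal vesicles, intermediate in both S-shaped body groups and dimmest in collecting duct. Sfrp1 and Rspo1 were above background on every array only in renal vesicles. Lef1 passed the test in no comparison on one of its probe sets and in 3 on the other. Every sample is bulk tissue, so fewer cells expressing a gene and less RNA per cell cannot be told apart.

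**Figure D1:**
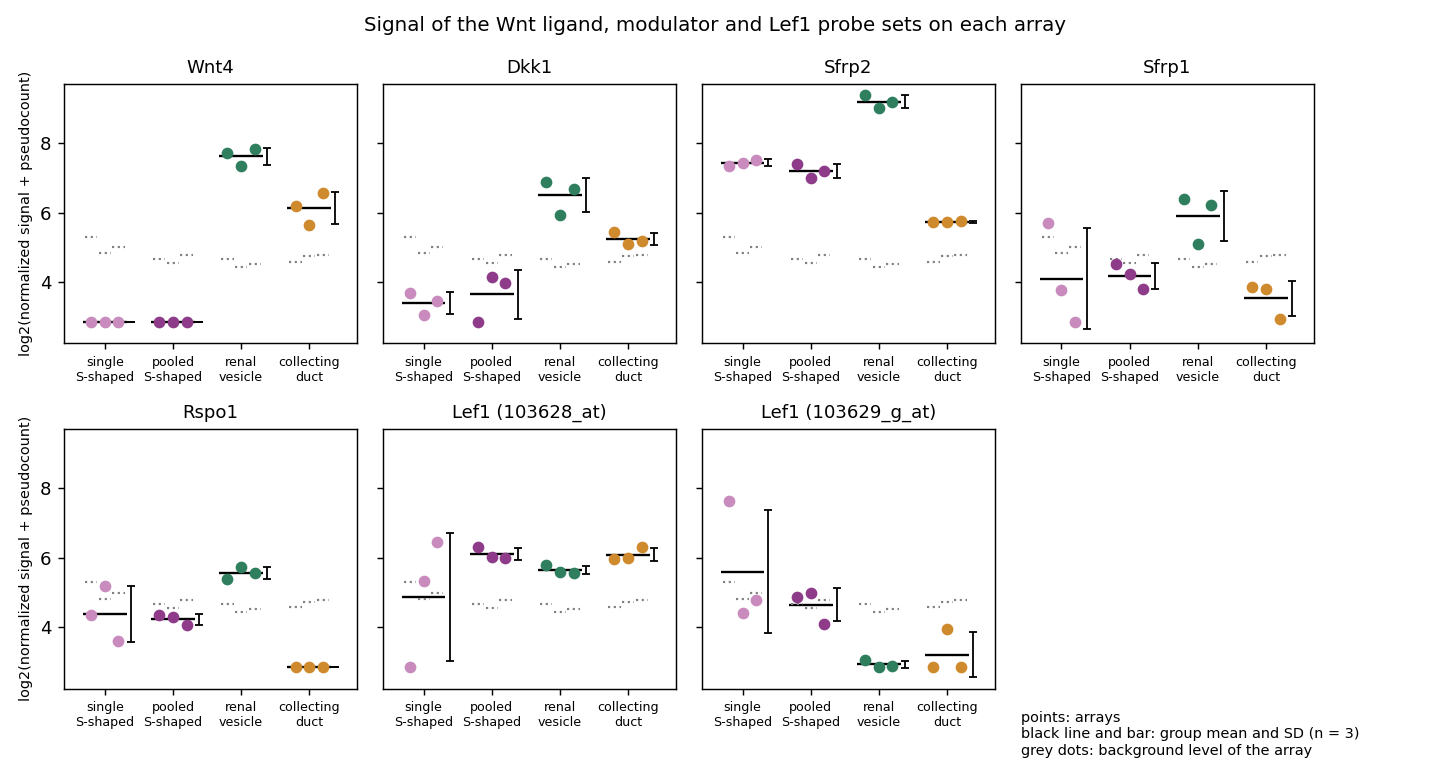
Level of each of the 7 probe sets on each of the 12 arrays, as log2 of normalised signal plus the pseudocount, with groups from left to right single S-shaped body, pooled S-shaped body, renal vesicle and collecting duct (black lines and bars are mean and SD, grey dots each array's background level). Wnt4 sat at the floor of 2.85 on all 6 S-shaped body arrays, and Sfrp2 averaged 9.18 in renal vesicles against 5.74 in collecting duct.

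Wnt4, the ligand that drives the mesenchyme to epithelialise, had negative deposited signals on all S-shaped body arrays. The deposited signals were -2.88, -2.55 and -13.8 in single S-shaped bodies, -32.6, -40.3 and -23.7 in the pooled S-shaped bodies, 109, 113 and 119 in renal vesicles and 146, 70.8 and 146 in collecting duct. The S-shaped body arrays did not overlap with the others. After normalisation the levels were 7.70, 7.35 and 7.82 in renal vesicles and 6.18, 5.66 and 6.57 in collecting duct, and these groups did not overlap either. Wnt4 was higher in renal vesicles than in collecting duct by 1.49 ± 0.27 on the log2 scale (SE, limma adjusted p = 0.00255). On the deposited scale, where collecting duct arrays are the brighter ones, the renal vesicle and collecting duct signals overlapped and the difference was -0.015 (limma adjusted p = 0.969), so this call depends on bringing the arrays to one scale. Against renal vesicles, Wnt4 was at least 7.76-fold lower in pooled S-shaped bodies (limma adjusted p = 2.29e-06) and at least 5.97-fold lower in single S-shaped bodies (limma adjusted p = 0.000170). Against collecting duct, it was at least 2.77-fold lower in pooled S-shaped bodies (limma adjusted p = 5.64e-06) and at least 2.13-fold lower in single S-shaped bodies (limma adjusted p = 0.000342). Single and pooled S-shaped bodies could not be compared for Wnt4, because every value was at the floor and the probe set fell under the filter on low levels. The order of Wnt4 levels was thus renal vesicle, collecting duct, and then both S-shaped body groups below background.

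Dkk1, a Dickkopf antagonist that binds Lrp5 and Lrp6 and is itself a common target of canonical Wnt signalling, had the same order of groups. Its levels were 3.69, 3.07 and 3.45 in single S-shaped bodies, 2.85, 4.14 and 3.99 in the pooled S-shaped bodies, 6.88, 5.94 and 6.68 in renal vesicles and 5.45, 5.10 and 5.18 in collecting duct. The 6 S-shaped body arrays were all at or below background, and all 6 others were above it. Renal vesicles exceeded collecting duct by 1.26 ± 0.38 on the log2 scale (SE, limma adjusted p = 0.0327), with no overlap between the arrays. That call was weak: it held in 12 of 21 other processing settings, where the adjusted p ran from 0.00638 to 0.731, and leaving out renal vesicle replicate 2 or 4, or any of the 3 collecting duct replicates, ended it. On the deposited scale the difference was -0.18 (limma adjusted p = 0.731), with renal vesicle signals of 56.7, 40.0 and 50.3 against collecting duct signals of 78.9, 44.9 and 48.8. Against renal vesicles, Dkk1 was at least 3.57-fold lower in pooled S-shaped bodies (limma adjusted p = 0.000210) and at least 2.75-fold lower in single S-shaped bodies (limma adjusted p = 0.00126). Against collecting duct, the bounds were at least 1.5-fold lower in pooled (limma adjusted p = 0.00639) and at least 1.15-fold lower in single S-shaped bodies (limma adjusted p = 0.00450).

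Sfrp2, a secreted Frizzled-related protein, varied little within groups, with no SD above 0.19. Its levels were 7.33, 7.44 and 7.52 in single S-shaped bodies, 7.39, 7.01 and 7.19 in the pooled S-shaped bodies, 9.36, 9.00 and 9.19 in renal vesicles and 5.73, 5.72 and 5.77 in collecting duct. The renal vesicle arrays were all above the S-shaped body arrays, and the collecting duct arrays all below them. Group means were 7.43 ± 0.10 in single S-shaped bodies, 7.20 ± 0.19 in pooled S-shaped bodies, 9.18 ± 0.18 in renal vesicles and 5.74 ± 0.03 in collecting duct (SD, n = 3 each). Renal vesicles exceeded collecting duct by 3.44 ± 0.17 (SE, limma adjusted p = 2.78e-07). Pooled S-shaped bodies fell by 1.99 ± 0.17 relative to renal vesicles (SE, limma adjusted p = 1.65e-05) and single S-shaped bodies fell by 1.75 ± 0.20 (SE, limma adjusted p = 0.000582). Sfrp2 was higher than in collecting duct by 1.45 ± 0.17 in pooled S-shaped bodies (SE, limma adjusted p = 6.67e-05) and by 1.69 ± 0.23 in single S-shaped bodies (SE, limma adjusted p = 0.000865). Single and pooled S-shaped bodies are the neighbours in this order that did not pass the test, with a difference of 0.23 and a 95% interval from -0.24 to 0.71 (limma adjusted p = 0.589). On the deposited scale the single S-shaped body signals of 15.6, 39.6 and 57.4 lay below the collecting duct signals of 100, 74.5 and 79.3. There the change between these groups was -1.20 and passed the test in the opposite direction, so this order depends on bringing the arrays to one scale.

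Sfrp1, a second Frizzled-related protein, was dimmer and more scattered. Its levels were 5.70, 3.77 and 2.85 in single S-shaped bodies, 4.52, 4.23 and 3.80 in the pooled S-shaped bodies, 6.40, 5.10 and 6.21 in renal vesicles and 3.87, 3.80 and 2.96 in collecting duct. It was above background on 1 single S-shaped body array, on no pooled S-shaped body or collecting duct array, and on all 3 renal vesicle arrays. Sfrp1 was at least 2.30-fold higher in renal vesicles than in collecting duct (limma adjusted p = 0.00171). It was at least 2.36-fold lower in pooled S-shaped bodies than in renal vesicles (limma adjusted p = 0.00637), a call that was lost on the deposited scale (limma adjusted p = 0.156). In single S-shaped bodies the change against renal vesicles was -1.80 and did not pass (limma adjusted p = 0.0939). The lone bright array was single S-shaped body replicate 3, the dimmest of the 12 arrays. Without it the change was -2.59 and passed (limma adjusted p = 0.0131). Replicates 4 and 5 were at or below background, so that change is no measure of size. Levels below renal vesicles had no order beyond their spread: none of the 3 comparisons among single S-shaped body, pooled S-shaped body and collecting duct passed, with adjusted p from limma of 0.970, 0.570 and 0.243.

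Rspo1, a secreted R-spondin that binds Lgr receptors and strengthens the response to Wnt, was detected in renal vesicles. Its levels were 4.36, 5.19 and 3.60 in single S-shaped bodies, 4.36, 4.29 and 4.06 in the pooled S-shaped bodies, 5.40, 5.72 and 5.57 in renal vesicles and at the floor of 2.85 on all 3 collecting duct arrays. It was above background on 1 single S-shaped body array, no pooled S-shaped body array and all 3 renal vesicle arrays, and the deposited collecting duct signals were below 0. Rspo1 was at least 1.82-fold higher in renal vesicles than in collecting duct (limma adjusted p = 2.24e-05) and at least 1.87-fold lower in pooled S-shaped bodies than in renal vesicles (limma adjusted p = 0.00203). The second of these was lost on the deposited scale (limma adjusted p = 0.318). Against collecting duct the pooled S-shaped body values passed the test (limma adjusted p = 0.00136) although every array of both groups was at or below background, so no fold is given. The single S-shaped body values also passed against collecting duct (limma adjusted p = 0.0322), but in only 6 of 12 other settings. Against renal vesicles the single S-shaped body change of -1.18 did not pass (limma adjusted p = 0.0969). It did without single S-shaped body replicate 4, at -1.59 (limma adjusted p = 0.0360). Replicates 3 and 5 were at or below background, so that second change is no measure of size.

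Lef1, the DNA-binding partner of β-catenin, gave 2 readings that differed in level and in the comparisons that passed. Their fitted changes differed in sign in the comparisons with single S-shaped bodies, but not in renal vesicles against collecting duct or in pooled S-shaped bodies against either. On probe set 103628_at the levels were 2.85, 5.34 and 6.44 in single S-shaped bodies, 6.30, 6.03 and 5.99 in the pooled S-shaped bodies, 5.78, 5.59 and 5.56 in renal vesicles and 5.98, 5.98 and 6.30 in collecting duct. It was above background on every array except single S-shaped body replicate 3. None of the 6 comparisons passed on this probe set. The change in renal vesicles against collecting duct was -0.44, with a 95% interval from -0.91 to 0.03 (limma adjusted p = 0.161). The change was 0.02 when pooled S-shaped bodies were set against collecting duct, with an interval from -0.45 to 0.49 (limma adjusted p = 0.951). Against renal vesicles it was 0.46, with an interval from -0.006 to 0.93 and no overlap between the arrays (limma adjusted p = 0.115). On the deposited scale alone it passed in 4 of the 6, with -1.97 in renal vesicles against collecting duct, 1.56 in pooled S-shaped bodies against renal vesicles, -2.76 in single against pooled S-shaped bodies and -3.17 in single S-shaped bodies against collecting duct.

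On probe set 103629_g_at, Lef1 levels were 7.62, 4.41 and 4.78 in single S-shaped bodies, 4.86, 4.98 and 4.11 in the pooled S-shaped bodies, 3.05, 2.85 and 2.90 in renal vesicles and 2.85, 3.95 and 2.85 in collecting duct. It was above background on 1 single and 2 pooled S-shaped body arrays, and on no renal vesicle or collecting duct array. It was higher in pooled S-shaped bodies than in renal vesicles by at least 1.07-fold (limma adjusted p = 0.00467) and higher than in collecting duct with no fold bound above 1 (limma adjusted p = 0.0119). The pooled calls were both lost when all 12 arrays were fitted together (limma adjusted p = 0.0711 against renal vesicles and 0.126 against collecting duct). In single S-shaped bodies it was at least 2.08-fold higher than in renal vesicles (limma adjusted p = 0.0317), a call held in 9 of 16 other settings and lost when any 1 of the 3 renal vesicle replicates was left out (limma adjusted p from 0.0851 to 0.0948). That bound rests on single S-shaped body replicate 3, since replicates 4 and 5 were at or below background. Without replicate 3 every array of both groups was at or below background, so no fold is given, and the fitted change was 1.66 (limma adjusted p = 0.0239). Single S-shaped body replicate 3 was at the floor on the first Lef1 probe set and the brightest of all arrays on the second.

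**Figure D2:**
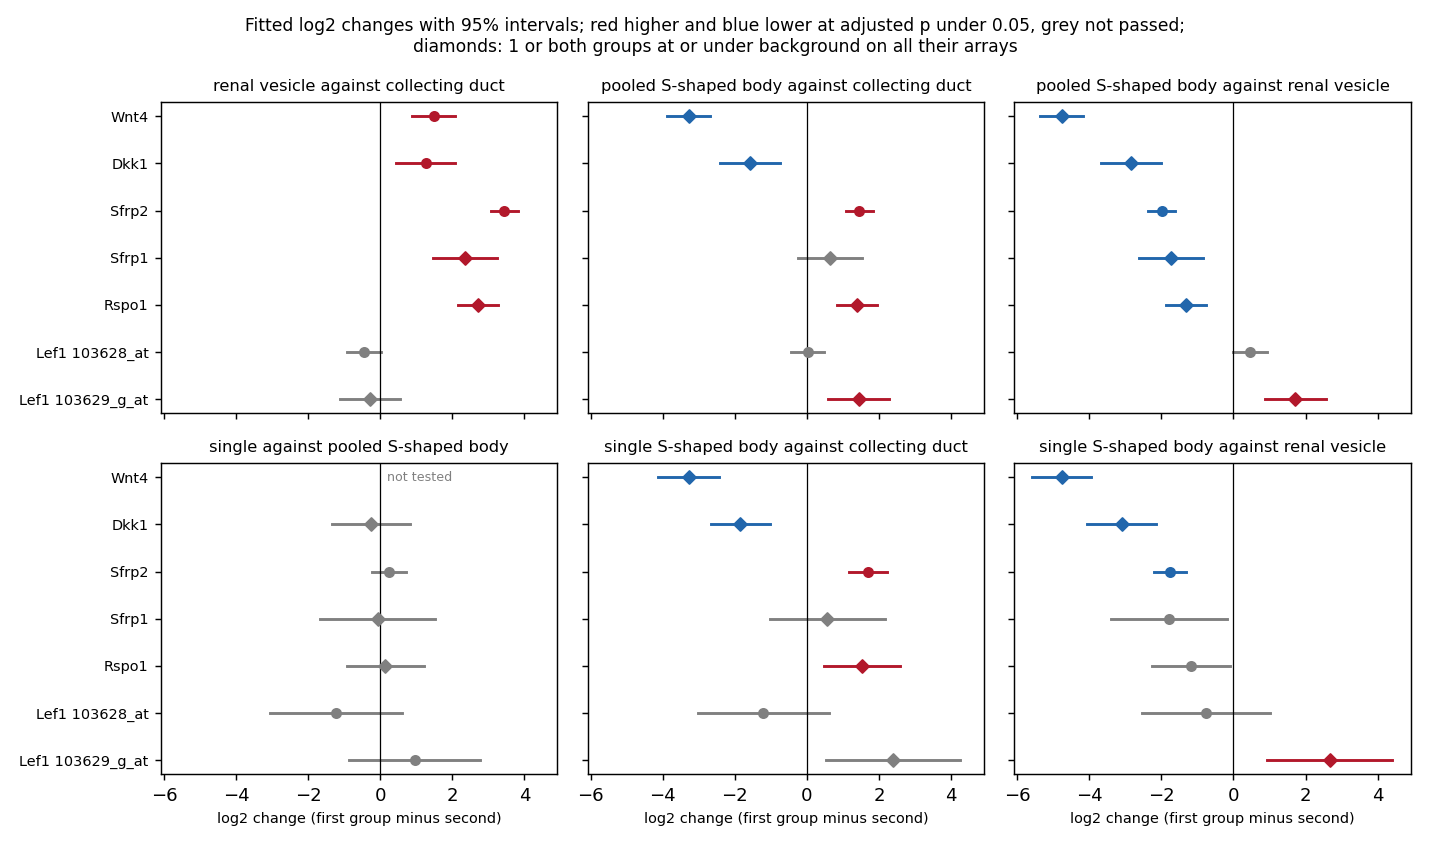
Fitted log2 changes with 95% intervals for the 7 probe sets in the 6 comparisons, first-named group minus second. Red and blue mark higher and lower at an adjusted p under 0.05, grey did not pass, and diamonds mark comparisons with at least 1 group at or below background on all its arrays. Sfrp2 is a circle in every panel, with changes from -1.99 to 3.44.

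Read over the 7 probe sets, renal vesicles against collecting duct gave 5 called higher and 0 called lower, beside 12.3% of all 9316 tested probe sets called higher and 11.6% called lower. Arrays of the groups did not overlap for 6 of the 7, beside 39.5% of all. The median change was 1.49 for the 7 probe sets and -0.02 for all those tested. Pooled S-shaped bodies against renal vesicles gave 1 higher and 5 lower, beside 17.5% and 19.2%, and no overlap for 7, beside 47.4%, with medians of -1.72 and -0.03. Set against collecting duct, pooled S-shaped bodies gave 3 higher and 2 lower, beside 18.2% and 20.0%, and no overlap for 5, beside 52.2%, with medians of 0.64 and -0.07. Among these 3 higher, Rspo1 was at or below background in both groups and Lef1 (103629_g_at) had no fold bound above 1. The medians of -1.72 and 0.64 are fitted changes of Sfrp1. It was at or below background on all pooled S-shaped body arrays, so these medians are no measure of size. These 3 comparisons share samples, so their counts are not independent of one another. The members were chosen with earlier results of these data known, so their counts beside the shares of all probe sets are descriptions and no test.

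Single S-shaped bodies against renal vesicles gave 1 higher and 3 lower of the 7 probe sets, beside 12.5% and 14.6% of all probe sets tested, and no overlap for 5, beside 44.5%, with medians of -1.75 and -0.03. Against collecting duct they gave 2 higher and 2 lower, beside 16.0% and 17.9%, and no overlap for 5, beside 48.4%, with medians of 0.57 and -0.07. Rspo1, 1 of the 2 higher, had no fold bound above 1 there. The median of 0.57 is the fitted change of Sfrp1, at or below background on all collecting duct arrays, so it is no measure of size. Against pooled S-shaped bodies limma called 0 of the 6 that could be tested, 0 of them also at an unadjusted p under 0.05, where 0.397% of all probe sets tested were called. Arrays of single and pooled S-shaped bodies overlapped for each of these 6 probe sets, while 24.9% of all probe sets had no overlap. The widest 95% intervals for this difference were those of Lef1, from -3.06 to 0.60 and from -0.87 to 2.77, so a change of several fold was not detectable there with 3 arrays a group.

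**Figure D3:**
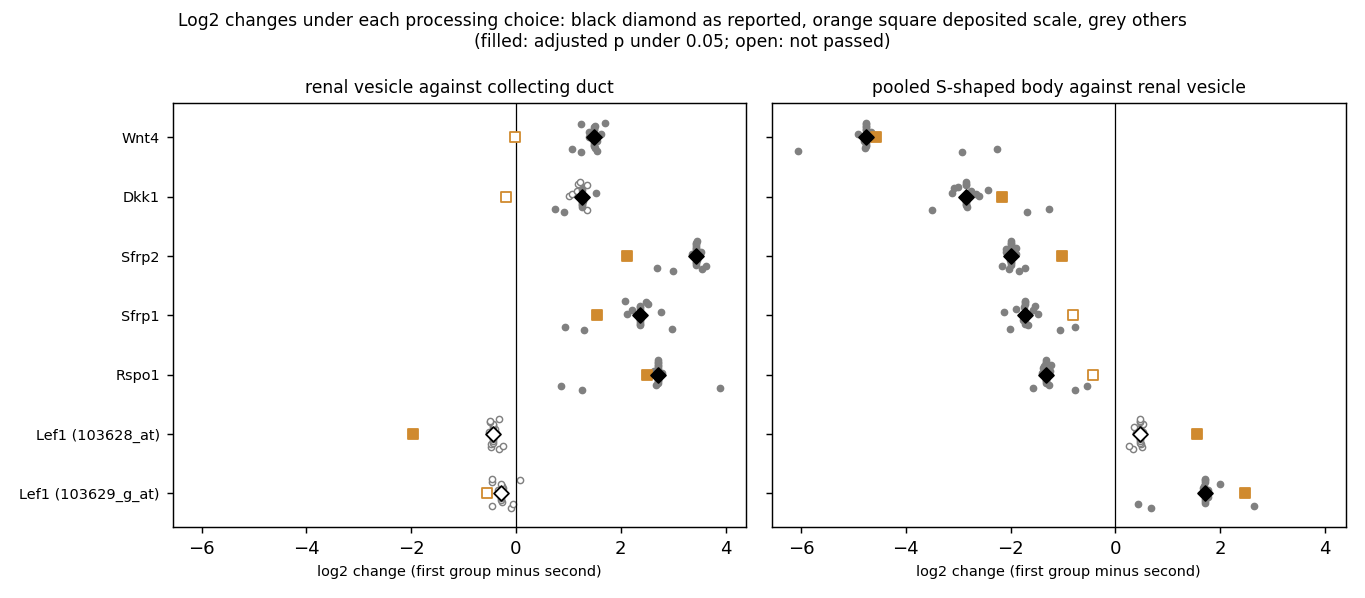
Log2 changes of the 7 probe sets under each processing choice in renal vesicles against collecting duct (left) and pooled S-shaped bodies against renal vesicles (right). Black diamonds are the values reported, orange squares the deposited scale, and filled marks have an adjusted p under 0.05. Wnt4 and Dkk1 move to -0.015 and -0.18 on the deposited scale in the left panel.

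The other genes of the pathway were taken from 5 lists of ligands, secreted modulators, receptors, intracellular components and common targets. Without the 6 genes above, the lists name 83 genes, of which 55 were measured and 37 to 42 tested, depending on the comparison. In renal vesicles against collecting duct 8 of 42 rose, 6 fell and 28 did not pass, beside 12.3% of all probe sets called higher and 11.6% lower. Of 42 tested in pooled S-shaped bodies, 6 rose and 9 fell against renal vesicles, beside 17.5% and 19.2%, and 6 rose and 10 fell against collecting duct, beside 18.2% and 20.0%. In single S-shaped bodies 7 rose and 7 fell of 40 against renal vesicles, beside 12.5% and 14.6%, and 8 rose and 10 fell of 38 against collecting duct, beside 16.0% and 17.9%. Nothing particular to the lists is read from these counts. Single against pooled S-shaped bodies gave limma calls for 0 of 37, with 6 higher and 3 lower at an unadjusted p under 0.05.

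**Figure D4:**
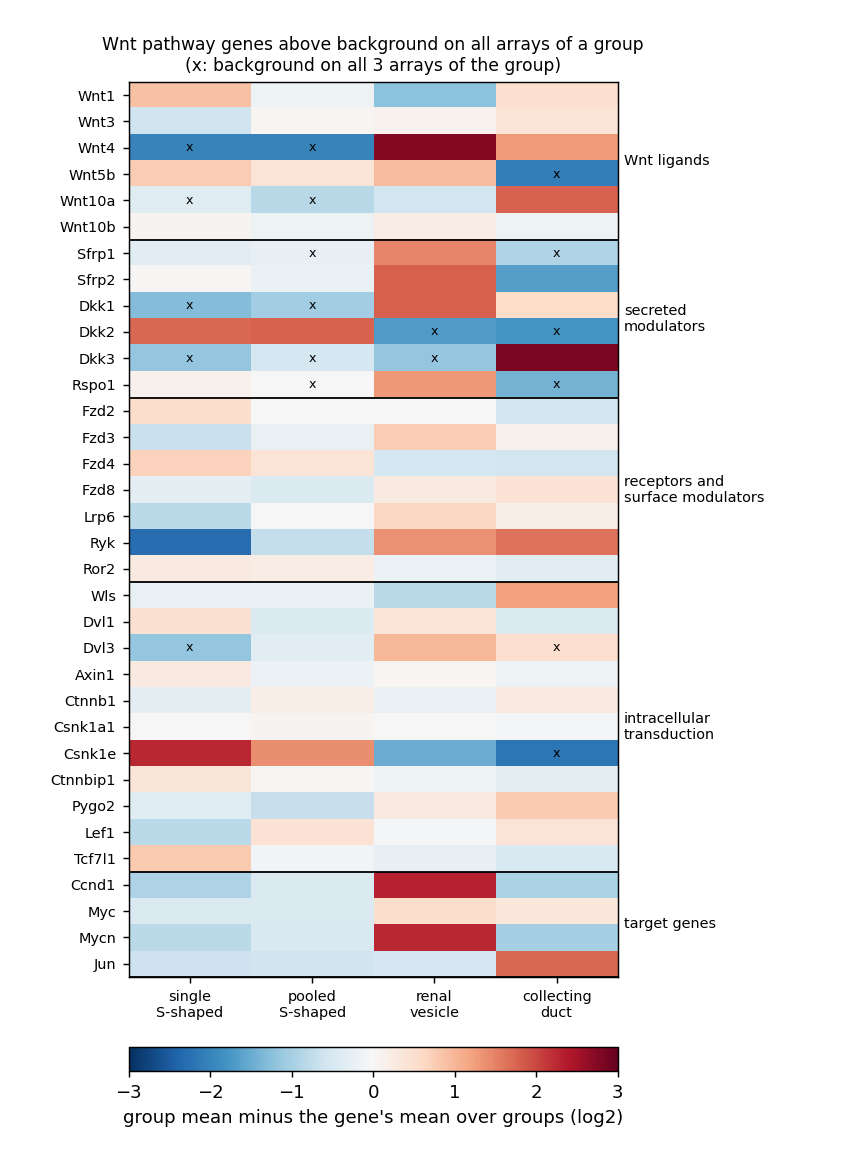
Group mean minus the gene's mean over the 4 groups (log2, colour) for 34 Wnt pathway genes above background on all arrays of at least 1 group, by role from ligands at the top to target genes at the bottom. Crosses mark groups at or below background on all 3 arrays. Wnt4 and Dkk1 have crosses in both S-shaped body columns, and Dkk2 has them in renal vesicle and collecting duct.

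Among the ligands, 14 of 19 listed were measured. Wnt5b, a ligand of the non-canonical branch, was detected on all 3 arrays of pooled S-shaped bodies and of renal vesicles and on 2 arrays of single S-shaped bodies, and was at the floor in collecting duct. It was at least 1.98-fold higher in single S-shaped bodies (limma adjusted p = 0.00929), at least 1.52-fold higher in pooled S-shaped bodies (limma adjusted p = 0.00111) and at least 2.20-fold higher in renal vesicles (limma adjusted p = 0.000612) than in collecting duct. Wnt10a had the opposite arrangement. It was at least 3.21-fold lower in single S-shaped bodies (limma adjusted p = 0.00436) and at least 4.18-fold lower in pooled S-shaped bodies (limma adjusted p = 0.000148) than in collecting duct, where it averaged 6.73 ± 0.47 (SD, n = 3). Wnt11, a ligand of ureteric bud tips, was above background on 2 renal vesicle arrays and on no collecting duct array, and at least 1.76-fold higher in renal vesicles (limma adjusted p = 0.0169).

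The 3 measured Dickkopf genes differed in the set of structures where they were detected, with collecting duct shared by Dkk1 and Dkk3. Dkk1 was above background in renal vesicles and collecting duct, as given above, and which of the pair was higher depended on the processing. Dkk2, whose protein also binds Lrp co-receptors, averaged 6.44 ± 0.87 in single and 6.48 ± 0.87 in pooled S-shaped bodies (SD, n = 3 each) and was at or below background on all renal vesicle and collecting duct arrays. It was at least 3.72-fold higher in single S-shaped bodies (limma adjusted p = 0.00170) and at least 3.81-fold higher in pooled S-shaped bodies (limma adjusted p = 9.40e-05) than in renal vesicles. Dkk3, a divergent family member, was above background on the 3 collecting duct arrays alone. It was at least 3.45-fold lower in single S-shaped bodies (limma adjusted p = 6.45e-05), at least 4.49-fold lower in pooled S-shaped bodies (limma adjusted p = 1.56e-05) and at least 4.86-fold lower in renal vesicles (limma adjusted p = 7.12e-06) than in collecting duct, where it averaged 6.83 ± 0.15 (SD, n = 3).

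Of the receptors and surface modulators, 15 of 23 listed were measured, and 2 of 10 tested rose and 0 fell in renal vesicles against collecting duct, beside 12.3% and 11.6% of all probe sets. Pooled S-shaped bodies gave 1 higher and 3 lower of 10 against renal vesicles, beside 17.5% and 19.2%, and 1 higher and 3 lower of 10 against collecting duct, beside 18.2% and 20.0%. Single S-shaped bodies gave 2 higher and 3 lower of 11 against renal vesicles, beside 12.5% and 14.6%, and 4 higher and 3 lower of 11 against collecting duct, beside 16.0% and 17.9%. Ryk, a Wnt receptor with a kinase-like domain, averaged 5.17 ± 0.89 in single S-shaped bodies, 6.72 ± 0.62 in pooled S-shaped bodies, 8.82 ± 0.19 in renal vesicles and 9.07 ± 0.31 in collecting duct (SD, n = 3 each). It fell by 2.09 in pooled S-shaped bodies (limma adjusted p = 0.000237) and by 3.64 in single S-shaped bodies (limma adjusted p = 0.000626) relative to renal vesicles. Fzd3, a Frizzled receptor, was higher in renal vesicles than in collecting duct by 0.64 (limma adjusted p = 0.0288) and fell by 1.00 in pooled S-shaped bodies relative to renal vesicles (limma adjusted p = 0.00178). Lgr5, a receptor for R-spondins, was at or below background in all 4 groups.

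Of 15 intracellular genes tested, 1 was called higher and 1 lower in renal vesicles against collecting duct, beside 12.3% and 11.6% of all probe sets. In pooled S-shaped bodies against renal vesicles 3 were higher and 2 lower of 15, beside 17.5% and 19.2%, and in single S-shaped bodies set against collecting duct 2 were higher and 3 lower of 14, beside 16.0% and 17.9%. Wls, the carrier that brings Wnt proteins to the cell surface, had mean levels of 8.70 ± 0.16 in renal vesicles and 10.74 ± 0.06 in collecting duct (SD, n = 3 each), a change of -2.04 (limma adjusted p = 2.53e-06). Dvl1, a Dishevelled protein that relays the receptor signal, was higher in renal vesicles by 0.82 (limma adjusted p = 0.00912). Csnk1e, a kinase of the pathway, was at the floor in collecting duct, and was at least 5.89-fold higher in single S-shaped bodies (limma adjusted p = 7.34e-05) and at least 3.26-fold higher in pooled S-shaped bodies (limma adjusted p = 0.000149).

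Of 10 measured target genes, 7 were tested in renal vesicles against collecting duct, where 3 were higher and 1 lower, beside 12.3% and 11.6% of all probe sets. In pooled S-shaped bodies against renal vesicles 0 of 7 were higher and 4 lower, beside 17.5% and 19.2%. Dkk1 and Lef1 belong to this list too. Ccnd1, which encodes cyclin D1, averaged 7.08 ± 0.13 in single S-shaped bodies, 7.56 ± 0.64 in pooled S-shaped bodies, 10.31 ± 0.20 in renal vesicles and 7.05 ± 0.32 in collecting duct (SD, n = 3 each). Renal vesicles exceeded collecting duct by 3.26 (limma adjusted p = 1.51e-05), and pooled S-shaped bodies fell by 2.75 relative to renal vesicles (limma adjusted p = 5.03e-05). Mycn, a Myc family transcription factor, had similar values, higher by 3.26 in renal vesicles than in collecting duct (limma adjusted p = 5.97e-07) and lower in pooled S-shaped bodies than in renal vesicles, with a change of -2.72 (limma adjusted p = 5.13e-06). Jun, an immediate early transcription factor, was lower than in collecting duct in single S-shaped bodies, with a change of -2.35 (limma adjusted p = 0.000449), and in pooled S-shaped bodies, with a change of -2.32 (limma adjusted p = 2.22e-05). Axin2, Cd44, Lgr5 and Fosl1 of this list were at or below background in all 4 groups. Ccnd1 also stands in the list of early nephron markers, and its regulation has inputs other than Wnt.

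Markers of other cell types moved with the groups, as the plot of summed marker signal shows. Of 9 measured endothelial markers, 8 were above background on all single S-shaped body arrays, 9 on all pooled S-shaped body arrays, 5 on all renal vesicle arrays and 0 on all collecting duct arrays. Their summed normalised signal ran 6540 to 8732 in single S-shaped bodies, 6902 to 8438 in pooled S-shaped bodies, 1504 to 3176 in renal vesicles and 47.5 to 84.2 in collecting duct. For 12 measured stroma markers the sums ran 6719 to 7772 in single S-shaped bodies, 4373 to 5784 in pooled S-shaped bodies, 403 to 1925 in renal vesicles and 21.9 to 44.8 in collecting duct. In collecting duct 11 of the 12 stroma markers were at or below background on every array, among them Col1a2, Col3a1, Pdgfra and Foxd1, and so were Pecam1, Cdh5, Kdr and Tek of the endothelial list. The part of these cells and of nephron progenitors in the lower Wnt4, Dkk1, Sfrp1, Sfrp2 and Rspo1 levels of S-shaped bodies was not tested. Nor was the part of any of these cells in the higher Dkk2, Csnk1e and Lef1 (103629_g_at) levels there.

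**Figure D5:**
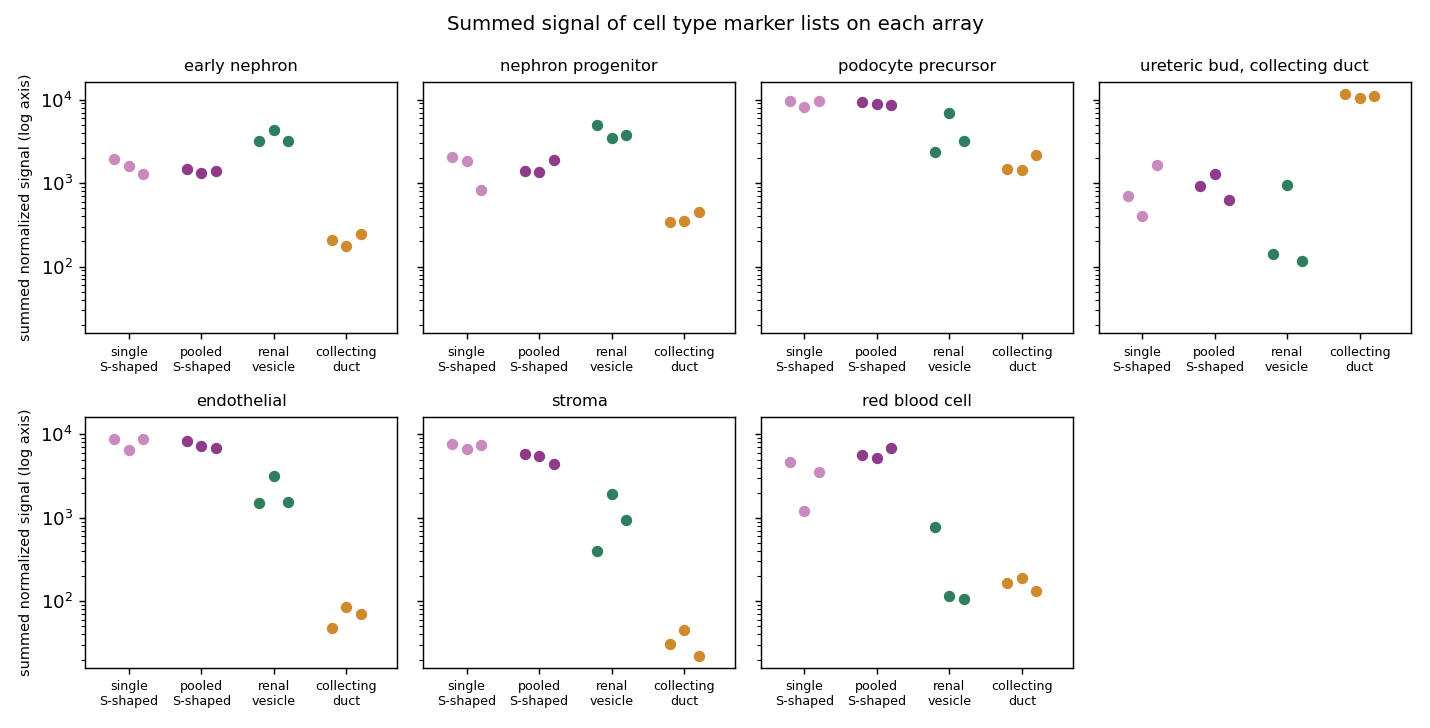
Summed normalised signal of 7 marker lists on each array (log axis), groups from left to right single S-shaped body, pooled S-shaped body, renal vesicle and collecting duct. The ureteric bud and collecting duct sums lie between 10515 and 11771 in collecting duct, and 1 renal vesicle array, replicate 3, stands at 945.

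The labelled tissues carried their own markers with exceptions. Early nephron markers summed to 1293 to 1935 in single S-shaped bodies, 1336 to 1485 in pooled S-shaped bodies, 3155 to 4378 in renal vesicles and 176 to 245 in collecting duct, while Pax2 and Fgf8 were at or below background everywhere. Nephron progenitor marker sums ran 829 to 2047 in single and 1356 to 1889 in pooled S-shaped bodies. They ran 3509 to 4933 in renal vesicles and 339 to 445 in collecting duct. On all collecting duct arrays, 4 of 7 measured progenitor markers and 2 of 10 measured early nephron markers were above background. In collecting duct 8 of 12 measured ureteric bud and collecting duct markers were above background on all arrays, and Ret, Wnt11, Wnt7b and Calb1 were on none. Renal vesicle replicate 3 stood apart, with a collecting duct marker sum of 945 against 141 and 116 in the other renal vesicle arrays, and with the highest endothelial and stroma sums of its group. Its podocyte precursor marker sum was 7003 against 2376 and 3198 in the other renal vesicle arrays. That sum ran 8107 to 9708 in single and 8596 to 9278 in pooled S-shaped bodies. S-shaped body arrays reached as high a collecting duct marker sum, 404 to 1641 for the single ones and 622 to 1267 for the pools. The collecting duct arrays themselves summed to between 10515 and 11771. Whether collecting duct cells added to the Wnt4 and Dkk1 levels of any other structure was not tested. Renal vesicle replicate 3 also had the lowest Wnt4, Dkk1, Sfrp2 and Sfrp1 levels of the renal vesicle arrays, but the highest Rspo1 level and early nephron marker sum. Without it the renal vesicle and collecting duct difference was 1.62 for Wnt4, 1.53 for Dkk1, 3.53 for Sfrp2, 2.77 for Sfrp1 and 2.63 for Rspo1. Each of the 5 still passed the test. The Sfrp1 and Rspo1 differences are no measure of size, since both genes were at or below background on all collecting duct arrays. The ratio of 3′ to middle signal of the actin control was 8.69 ± 1.5 in single S-shaped bodies, 3.67 ± 0.39 in pooled S-shaped bodies, 8.58 ± 0.61 in renal vesicles and 8.25 ± 2.09 in collecting duct (SD, n = 3 each). The ratio of 3′ to 5′ signal of the Gapdh control stood highest in pooled S-shaped bodies, at 10.8 ± 2.00 in single S-shaped bodies, 23.9 ± 3.82 in pooled S-shaped bodies, 10.96 ± 3.23 in renal vesicles and 10.3 ± 1.55 in collecting duct (SD, n = 3 each). That of actin stood highest in single S-shaped bodies, at 85.7 ± 8.64 in single S-shaped bodies, 38.3 ± 7.65 in pooled S-shaped bodies, 39.6 ± 3.61 in renal vesicles and 51.2 ± 33.4 in collecting duct (SD, n = 3 each). The part of these ratios in the results was not tested.

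The genes with profiles most like each member were found among 6755 genes by the root mean square difference of log2 profiles, each centred on its own mean over the 12 arrays. These are descriptions over arrays that share group, brightness and amplification, and the genes nearest to a member were selected from all of them. Nearest to Wnt4 were Sinhcaf at 0.41, Dusp9 at 0.53 and Lpar1 at 0.66. Dusp9 encodes a phosphatase of MAP kinases and averaged 3.34 ± 0.43 in single S-shaped bodies, 3.30 ± 0.06 in pooled S-shaped bodies, 7.01 ± 0.66 in renal vesicles and 6.02 ± 0.12 in collecting duct (SD, n = 3 each). Nearest to Dkk1 were Myb at 0.34, Saa2 at 0.36 and Yme1l1 at 0.37. The Saa2 probe set is of a type that can bind related genes (suffix _f_at), as are those of Hoxa11os and Aldh2 below. Those of Myb and Fzd3 end in _s_at and the second of Lef1 in _g_at, and their specificity was not examined.

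Sfrp2 and Rspo1 shared a neighbour in Gpc3, which encodes the heparan sulphate proteoglycan glypican-3, at 0.45 from Sfrp2 and 0.33 from Rspo1. Gpc3 averaged 8.04 ± 0.33 in single S-shaped bodies, 7.76 ± 0.05 in pooled S-shaped bodies, 9.32 ± 0.22 in renal vesicles and 6.93 ± 0.07 in collecting duct (SD, n = 3 each). The other neighbours of Sfrp2 were Hoxa11os at 0.43, an antisense transcript of the Hoxa11 locus, and Tnfrsf19 at 0.46, a receptor of the tumour necrosis factor family. Those of Rspo1 were Mdk at 0.32, which encodes the secreted growth factor midkine, and Aldh2 at 0.41, a mitochondrial aldehyde dehydrogenase. Nearest to Sfrp1 were Sema5a at 0.51, Akt1s1 at 0.52 and Nr2c2 at 0.56. Lef1 on probe set 103629_g_at was nearest to Ly86 at 0.59, Uqcc3 at 0.60 and Ackr4 at 0.61, and its other probe set spanned only 1.23 between group means and was not matched.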

How the data were processed

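The 12 samples were hybridised to MG_U74Av2 arrays. The deposited table holds one intensity per probe set and array, on a linear scale with negative values. GCOS is named in the submitters' processing notes without a version, while the sources used here do not give its summary method or any scaling of the arrays. Array medians differed up to 17.8-fold, so the 12422 probe sets (66 controls left out) were quantile normalised, negative values became 0, and log2 followed after adding 7.22, a pseudocount equal to 25% of the overall median. Each fit left out the probe sets below the 25th percentile of mean level on its arrays. The 7 probe sets of the 6 genes passed in every fit except Wnt4 in single against pooled S-shaped bodies.

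Tests used limma 3.58.1 (R 4.3.3; empirical Bayes with a trend, two-sided), and a probe set was called when its Benjamini-Hochberg p over all 9316 tested was under 0.05. One fit on 9 arrays held pooled S-shaped bodies, renal vesicles and collecting duct, and each comparison with single S-shaped bodies was fitted on 6. Scripts were tested on simulated data. The number of arrays limits the precision. Symbols came from the platform annotation supplied: 10833 probe sets had 1 symbol, 396 several and 1193 none. Genes named beyond the 6 members are, per Wnt list and comparison, at most the 2 called genes with the largest change, the 3 nearest profiles per probe set spanning at least 2 log2 units, and marker genes at or under background. Dkk2 and Dkk3 are set beside Dkk1 under the same rule. The members and lists were chosen with earlier results of these data known. Alternatives changed the pseudocount, filter, normalisation, arrays in the fit, replicate block and arrays left out.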

Additional observations from a re-analysis of the deposited data

How the results depend on the processing

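Of 734 alternative values for single probe sets, 671 kept their direction and side of the threshold, 25 lost the call, 18 gained one and 20 changed sign. Such values are likewise no measure of size where the dimmer group was at or below background on all its arrays. On the deposited scale, without normalisation between arrays, the change in renal vesicles against collecting duct was -0.015 for Wnt4 and -0.18 for Dkk1, that of Lef1 (103628_at) in pooled S-shaped bodies against collecting duct was -0.41, while Sfrp2 was -1.20 and Sfrp1 -0.79 in single S-shaped bodies against collecting duct. There 6 probe sets were called lower in single against pooled S-shaped bodies, with Lef1 (103629_g_at) at -1.13, Sfrp2 at -2.30 and Rspo1 at -1.38, where 8345 of all probe sets were called against 37 after normalisation. On that scale 7268 probe sets were called in renal vesicles against collecting duct (2225 after normalisation), 5432 in pooled S-shaped bodies against renal vesicles (3423), 8299 for single S-shaped bodies set against collecting duct (3152), and 4349 against renal vesicles (2525). With a filter at the 50th percentile, 3 probe sets were called in renal vesicles against collecting duct, 3 in pooled S-shaped bodies against collecting duct, 3 against renal vesicles, 1 for single S-shaped bodies set against collecting duct, 2 against renal vesicles, since only 4, 4, 4, 2 and 3 of the 7 were then tested. In single against pooled S-shaped bodies all calls numbered 146 with scaling to the 75th percentile, 424 with all 12 arrays in one fit, 19 with the stricter filter, and 1 to 72 with 1 array left out.

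Other sign changes were in values that did not pass. Sfrp1 in single against pooled S-shaped bodies was 0.0753 with a pseudocount equal to the median and 0.0734 with one of 50. Leaving out 1 array at a time, Sfrp1 in this comparison ranged from -0.87 to 0.55, Rspo1 from -0.26 to 0.54 and Lef1 (103629_g_at) from -0.0574 to 1.55. Likewise Lef1 (103628_at) ranged from -0.0785 to 0.13 in pooled S-shaped bodies against collecting duct and from -1.55 to 0.25 in single S-shaped bodies against renal vesicles, and Lef1 (103629_g_at) from -0.47 to 0.0825 in renal vesicles against collecting duct. Member probe sets called under the same omissions numbered 4 to 5 in renal vesicles against collecting duct, 4 to 5 in pooled S-shaped bodies against collecting duct, 5 to 6 against renal vesicles, 3 to 4 for single S-shaped bodies set against collecting duct, 3 to 5 against renal vesicles and 0 to 0 against pooled.

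Of 11 pairs of samples with the same replicate number, 0 had deviations from their group means that correlated above 0.1 (-0.09 to 0.05). Pairs with different numbers ran from -0.15 to 0.12. Deviations of 3 arrays in a group sum to 0, so these correlations show no sign of pairing but cannot exclude it. With the replicate block, 4 member probe sets were called in renal vesicles against collecting duct (Dkk1 at 1.02, limma adjusted p = 0.181), 5 in pooled S-shaped bodies against collecting duct, 6 against renal vesicles and 4 in single S-shaped bodies against renal vesicles, and all calls numbered 1383 against 2225 in the first and 1113 against 2525 in the last. No block could be fitted for the other comparisons, whose groups share under 2 numbers.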
